A study of Mus musculus with 12 samples.

Results

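The genes that moved the same way in both sorted gut DC subsets upon loss of Cbfβ are described here. All 12 RNA-seq libraries of the series were used, 6 from Cbfb-cKO mice and 6 from WT mice, with 3 samples per genotype for each of the CD103+CD11b- and CD103-CD11b+ subsets. The average effect of genotype was fitted over the 12 samples with subset as a covariate, and the 20580 genes that reached 5 counts in any sample were tested. A gene was called at a fold change over 1.3 with a Benjamini-Hochberg adjusted p under 0.05 by the quasi-likelihood test of edgeR. A called gene was counted as shared when its fold change had the same sign in each subset with an unadjusted p under 0.05 in each. By this rule 298 of the 20580 genes were shared, 143 raised and 155 lowered in Cbfb-cKO DCs.

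The Cbfb-cKO mice carried floxed Cbfb alleles and the CD11c-Cre transgene (CbfbF/F:CD11c-Cre), in which CD11c (Itgax) regulatory sequence drives Cre in DCs and other CD11c-expressing cells, and this Cre line is also known to be active in some T cells. The WT mice were labelled wild type, and the labels do not say whether they carried Cre. All mice were of a mixed background, and their ages were not given for the RNA-seq samples. Each library was made in bulk from a small number of flow-sorted cells of the intestine by RamDA-seq, a random-primed total RNA method. The 3 samples of a group came from different mice, and whether both subsets were sorted from the same mice is not stated. If they were, the 6 samples of a genotype come from 3 mice.

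Cbfβ is the non-DNA-binding partner of the Runx transcription factors. It stabilises Runx1, Runx2 and Runx3 on DNA, and the complexes activate or silence genes depending on the site and on the cofactors that they recruit. In the gut, cDC1s are mostly CD103+CD11b- and specialise in cross-presentation, whereas CD11b+ cDC2s present antigen to CD4+ T cells and respond to TGFβ and Notch signals. Genes that move alike in both subsets are those whose level followed genotype in both sorted populations. The study reports a marked decrease of CD103+CD11b+ cDC2s in the small intestine of the Cbfb-cKO mice. Whether a change in the cells held by each gate had a part in the shared genes was not tested.

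The libraries held 2161929 to 5863484 gene counts. CPM are counts relative to the library's size after TMM scaling, and on that scale 3 counts correspond to 0.485 to 1.53 CPM. Values are given with samples in replicate order, and fold changes are log2 of Cbfb-cKO over WT. The DC genes Flt3 and Zbtb46 were present in every sample, at 216 to 547 CPM and 203 to 364 CPM. The chemokine receptor Xcr1, a cDC1 marker, was at 384 to 680 CPM in the CD103+CD11b- samples and at 4.0 to 73.9 CPM in the CD103-CD11b+ samples. The cDC2 marker Sirpa was at 283.5, 214.2 and 137.4 CPM in WT and 47.3, 40.3 and 5.08 CPM in Cbfb-cKO CD103+CD11b- samples. In the CD103-CD11b+ samples Sirpa was at 303.5 to 621.1 CPM. The plasmacytoid DC marker Siglech was at 464.4, 358.3 and 159.6 CPM in WT and 110.5, 149.9 and 18.0 CPM in Cbfb-cKO CD103+CD11b- samples. The cell make-up of the samples was not tested. Xist and Y-linked transcripts split the samples the same way in both subsets, with WT replicates 1 and 2 and Cbfb-cKO replicate 2 of the female pattern and WT replicate 3 and Cbfb-cKO replicates 1 and 3 of the male pattern. The genotypes were therefore not balanced for sex, and values with sex as a covariate are given where they end the call of a gene chosen by the naming rules.

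The targeted gene did not separate the genotypes. Cbfb (ENSMUSG00000031885, chromosome 8 of GRCm38, 105170674 to 105217989) was at 228, 216 and 199 CPM in WT CD103+CD11b- DCs and at 221, 215 and 290 CPM in Cbfb-cKO CD103+CD11b- DCs. In CD103-CD11b+ DCs it was at 184, 161 and 217 CPM in WT and at 180, 170 and 273 CPM in Cbfb-cKO samples. The groups overlapped in both subsets, and the log2 fold change over both was 0.16 (SE 0.13, edgeR adjusted p = 0.594). Counts over the whole gene do not show whether the floxed exon was lost, so the labels could not be checked by it.

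Of the DNA-binding partners, Runx1 rose in both subsets. It was at 662, 645 and 675 CPM in WT and 906, 976 and 1109 CPM in Cbfb-cKO CD103+CD11b- DCs, without overlap. The CD103-CD11b+ samples had 829, 644 and 770 CPM in WT and 828, 1029 and 1487 CPM in Cbfb-cKO samples, where 1 Cbfb-cKO value lay within the WT range. The log2 fold change was 0.58 over both subsets (SE 0.13, edgeR adjusted p = 0.0487), with 0.59 in the CD103+CD11b- and 0.57 in the CD103-CD11b+ subset. The call was lost with sex as a covariate (edgeR adjusted p = 0.0934) and without 11 of the 12 samples in turn (up to 0.101, without WT CD103+CD11b- replicate 1). For Runx3 it was -0.13 in the CD103+CD11b- subset and 0.77 in the other (over both 0.32, edgeR adjusted p = 0.419). Runx2 had -1.21 and 1.06, with -0.07 over both (edgeR adjusted p = 0.959), a sign that changed under several alternatives. Of the 10 genes listed for the Runx/Cbfβ complex and its ETO corepressors, Runx1 was called and the other 9 were not.

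Over both subsets 159 genes were raised (0.773% of those tested) and 160 were lowered (0.777%). All 319 had the same sign in both subsets, against 56.3% of all genes tested, and 298 of them were shared (1.45% of genes tested, 143 raised, 0.695%, and 155 lowered, 0.753%). The within-subset p-values and the average p rest on the same samples and are not independent evidence of each other. The median log2 fold change was 0.87 over shared raised and -1.10 over shared lowered genes, and 61 and 89 of them passed a fold change of 2. The groups did not overlap in either subset for 117 of the 143 raised and 146 of the 155 lowered genes, against 1.70% and 2.01% of all genes tested, and all 6 Cbfb-cKO samples lay on 1 side of all 6 WT samples for 39 and 57 of them, against 0.986%. Because the rule selects on this contrast, these shares only describe the members. By each subset alone, 14 raised and 13 lowered genes were called in both, while 72 and 90 were called in neither. Over all 20580 genes tested, 34 were called in both, 7 of them in opposite directions, and 20073 in neither. By single subset, 1.02% of all genes were called in CD103+CD11b- and 1.61% in CD103-CD11b+ DCs.

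**Figure D1:**
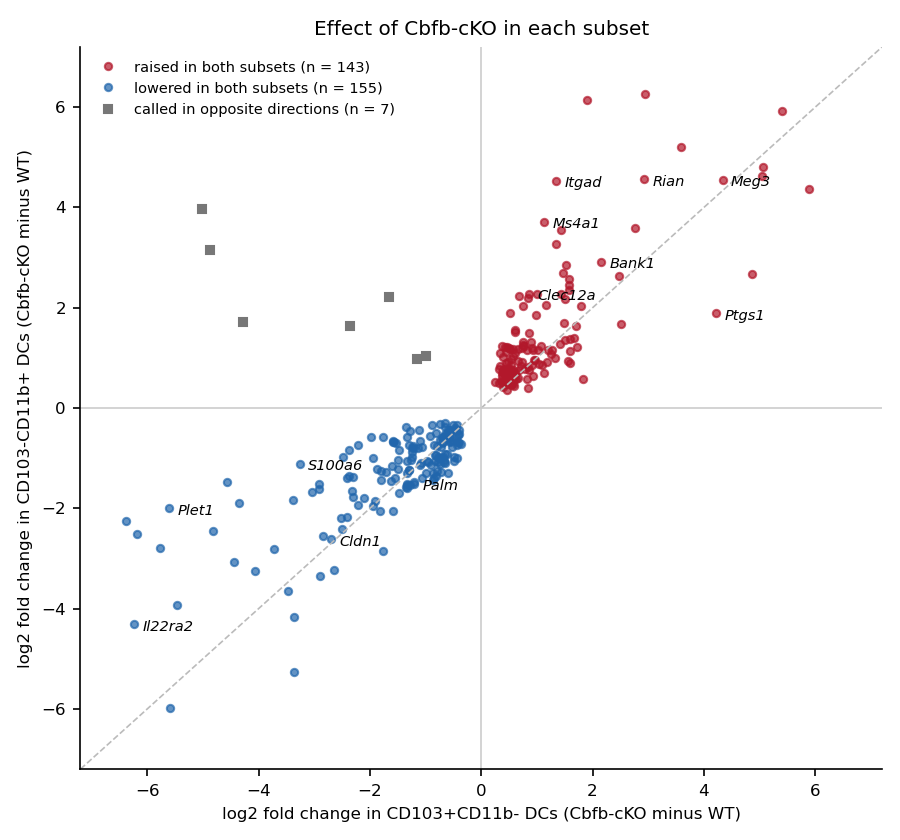
Log2 fold change (Cbfb-cKO minus WT) with CD103+CD11b- DCs on the x axis and CD103-CD11b+ DCs on the y axis, 1 point per gene, for the 143 shared raised genes (red), the 155 shared lowered genes (blue) and the 7 genes called in both subsets in opposite directions (grey squares). The dashed line marks equal effects, and Cldn1 lies near it at -2.70 and -2.62 whereas Itgad lies above it at 1.35 and 4.54.

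The number of calls depended on how the samples were treated. With sex as a covariate 129 raised and 87 lowered genes were shared, of which 98 and 78 were among those above. With a correlation between same-numbered samples of a genotype in limma voom (estimated at 0.163) 82 and 71 were shared, and with the 2 subsets' counts summed per genotype and number, so that 3 Cbfb-cKO sums were set against 3 WT sums, 9 and 1 remained. Leaving out 1 sample gave between 36 shared raised genes (without Cbfb-cKO CD103+CD11b- replicate 2) and 134, and between 40 shared lowered genes (without Cbfb-cKO CD103+CD11b- replicate 1) and 120. The sign over both subsets was kept for the 298 genes in each of 26 fits that tested them, 243 genes in all 26 and the other 55 in 23 or more, and 31 raised and 33 lowered genes stayed shared whichever 1 sample was left out. Of the 74 shared genes named below or chosen by the same rules, 29 kept their call without any 1 sample, 50 with sex as a covariate and 48 with the correlation of same-numbered samples. That correlation ended, among others, the calls of Runx1, Plet1, Cxcl9, Tlr5, Tlr11, Treml4, Siglecf, Cd300c, Itgam, S100a6, Arap1, Rab38, Chuk, Slamf8, Cd244a, Smpdl3b, Pcyt1a, Ugcg, Ppp1r3b, Gyg, Tpi1, Ms4a1, Thy1, Cd7 and Foxc1 (limma adjusted p from 0.052 for Cxcl9 to 0.17 for Tlr5).

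The clearest loss was of Il22ra2, which encodes IL-22 binding protein, a secreted receptor that neutralises IL-22. It was at 237, 163 and 155 CPM in WT and 0.888, 4.39 and 1.96 CPM in Cbfb-cKO CD103+CD11b- DCs. In CD103-CD11b+ DCs it was at 220, 114 and 227 CPM in WT and 5.16, 7.38 and 17.9 CPM in Cbfb-cKO samples. The lowest WT value was above the highest Cbfb-cKO value in the whole series, and WT levels in the subsets lay in the same range. The log2 fold change was -5.13 over both subsets (SE 0.47, edgeR adjusted p = 0.00138), with -6.23 in the CD103+CD11b- and -4.31 in the CD103-CD11b+ subset, and the difference of those effects did not pass the test (edgeR adjusted p = 0.35). Il22ra2 was the 1 lowered gene that stayed shared when the subsets' counts were summed.

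Palm, which encodes paralemmin, a lipid-anchored protein of the plasma membrane, had the smallest p of all genes. It was at 53.0, 46.0 and 45.8 CPM in WT and 21.1, 18.8 and 22.7 CPM in Cbfb-cKO CD103+CD11b- DCs. The CD103-CD11b+ samples had 84.4, 93.6 and 72.4 CPM in WT and 32.1, 28.3 and 27.0 CPM in Cbfb-cKO samples. The 6 WT and 6 Cbfb-cKO values did not overlap, and the log2 fold change was -1.36 over both subsets (SE 0.11, edgeR adjusted p = 0.000569), -1.21 and -1.51 in the 2 subsets.

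Claudin-1, a tight junction protein, fell from different starting levels. Cldn1 was at 39.7, 63.4 and 47.0 CPM in WT and 6.88, 5.86 and 10.6 CPM in Cbfb-cKO CD103+CD11b- DCs. In CD103-CD11b+ DCs it was at 10.2, 7.33 and 6.11 CPM in WT and 1.57, 0.476 and 2.04 CPM in Cbfb-cKO samples, the lowest of them under the level of 3 counts. The groups did not overlap within either subset, the log2 fold changes were -2.70 and -2.62, and that over both was -2.67 (SE 0.28, edgeR adjusted p = 0.00183). Ndrg4, an alpha/beta hydrolase-fold family member best known from heart and brain, was at 2.29 to 14.1 CPM in the 6 WT samples and at 0.222 to 0.714 CPM in the 6 Cbfb-cKO samples. Each Cbfb-cKO sample held at most 3 counts of it (log2 fold change -3.58, SE 0.39, edgeR adjusted p = 0.00192).

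**Figure D2:**
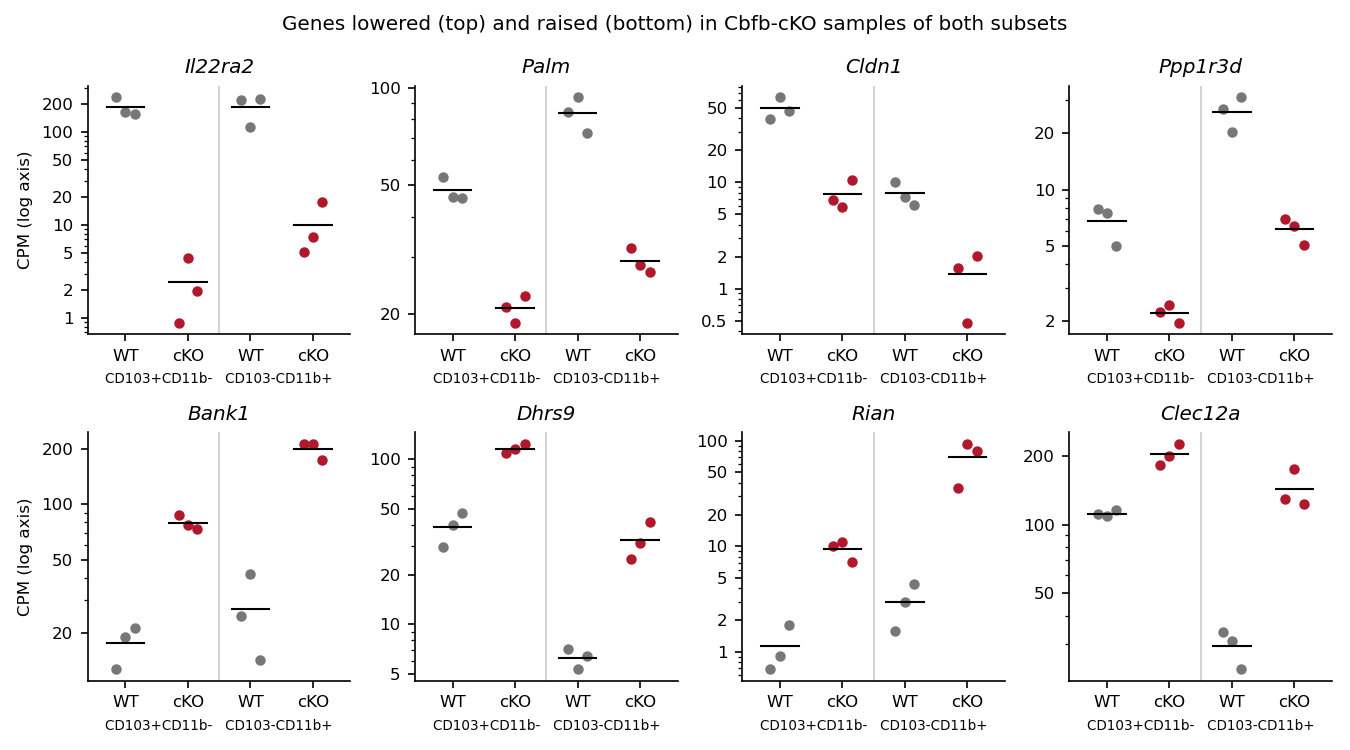
CPM on a log axis in each of the 12 samples for 4 lowered genes (top) and 4 raised genes (bottom), with WT in grey, Cbfb-cKO in red and a black line at each group's mean of 3 samples. Within each subset the red and grey points do not overlap in any of the 8 panels, and for Il22ra2 the lowest WT value of 114 CPM is above the highest Cbfb-cKO value of 17.9 CPM.

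The remaining top lowered genes had varied functions. Maml3, a Mastermind-like coactivator of Notch signalling, was at 26.7, 19.2 and 25.4 CPM in WT and 9.54, 9.52 and 10.9 CPM in Cbfb-cKO CD103+CD11b- DCs. The CD103-CD11b+ samples had 101, 109 and 94.0 CPM in WT and 51.9, 61.1 and 62.7 CPM in Cbfb-cKO samples. The groups did not overlap in either subset (log2 fold change over both -1.0, SE 0.12, edgeR adjusted p = 0.00346). Arid5a, an RNA-binding protein that stabilises Il6 mRNA, had a log2 fold change of -0.95 (SE 0.11, edgeR adjusted p = 0.00283), -0.84 in CD103+CD11b- and -1.05 in CD103-CD11b+ DCs. Rasd2, a Ras-related small GTPase, had -3.17 (SE 0.40, edgeR adjusted p = 0.00362). Acot11, an acyl-CoA thioesterase, had -1.43, Mvb12b, an ESCRT-I subunit, -0.88, and the uncharacterised 2900026A02Rik -1.26 (edgeR adjusted p = 0.00255, 0.00342 and 0.00204). H2-Q10 had -2.69 (edgeR adjusted p = 0.00735), but it shares sequence with other class I genes, so the gene of origin of its reads is uncertain.

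Among the raised genes Bank1, which encodes a scaffold of antigen receptor and Toll-like receptor signalling that is also expressed in DCs, had the smallest p. It was at 12.7, 19.0 and 21.3 CPM in WT and 87.7, 76.9 and 73.1 CPM in Cbfb-cKO CD103+CD11b- DCs. In CD103-CD11b+ DCs it was at 24.7, 41.6 and 14.2 CPM in WT and 213, 214 and 174 CPM in Cbfb-cKO samples. All 6 Cbfb-cKO values were above all 6 WT values (log2 fold change 2.53, SE 0.25, edgeR adjusted p = 0.00138), with 2.15 and 2.91 in the subsets. Adgrl3, the adhesion receptor latrophilin-3, was mostly a transcript of CD103-CD11b+ DCs, at 59.5, 91.0 and 64.3 CPM in WT and 324, 492 and 457 CPM in Cbfb-cKO samples. In CD103+CD11b- DCs it was at 1.71, 2.06 and 2.42 CPM in WT and 7.10, 7.32 and 4.30 CPM in Cbfb-cKO samples, which again did not overlap. Its log2 fold change over both subsets was 2.26 (SE 0.22, edgeR adjusted p = 0.00138), 1.57 and 2.57 in the subsets, and the difference of effects did not pass the test (edgeR adjusted p = 0.36).

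Aqp9, a channel for glycerol, water and other small solutes, was at 53.7, 66.3 and 66.3 CPM in WT and 149, 177 and 124 CPM in Cbfb-cKO CD103+CD11b- DCs. The CD103-CD11b+ samples had 48.9, 42.6 and 32.6 CPM in WT and 80.6, 108 and 89.7 CPM in Cbfb-cKO samples. The 12 values did not overlap between genotypes, and the effect was of like size in the subsets (1.27 and 1.16, over both 1.22, SE 0.13, edgeR adjusted p = 0.00192). The transcription factors Lyl1, a bHLH partner in blood stem cells and progenitors, and Cited2, a CBP/p300-binding modulator, had log2 fold changes of 0.97 (SE 0.11, edgeR adjusted p = 0.00275) and 1.08 (SE 0.13, edgeR adjusted p = 0.00283). The corepressor Rere rose by little but evenly, from 235 to 270 CPM in the 6 WT samples to 333 to 390 CPM in the 6 Cbfb-cKO samples (log2 fold change 0.51, SE 0.06, edgeR adjusted p = 0.00342). C9orf72, a subunit of a complex that regulates lysosomes and autophagy, had a log2 fold change of 1.02 (SE 0.13, edgeR adjusted p = 0.00362). Each of the 24 genes named as the top 12 in each direction kept its call with sex as a covariate, with the correlation of same-numbered samples, with a correction for GC content and without any 1 sample. With the counts of both subsets summed, 6 of them (Il22ra2, Bank1, Adgrl3, Aqp9, Rian and Meg3) kept it and 18 lost it, Palm among them (edgeR adjusted p = 0.0622).

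The core of the sequence bound by Runx proteins is TGTGGT, with TGCGGT as its other common form, and both were searched on both strands in the 250 bases before each start in the RefSeq promoter windows (GRCm38.p6). Of the 24 top genes 22 have such a window, some of them more than 1, and 3 genes hold a match before any of their starts, against 20.9% of the 12580 genes tested that have a window. Their upstream bases are shown because these are the top genes in which the letters occur, in sense orientation of the gene, 5′ to 3′, with the match in capitals (ACCACA is TGTGGT on the other strand).
Adgrl3, chr5:81021343-81021592, plus strand: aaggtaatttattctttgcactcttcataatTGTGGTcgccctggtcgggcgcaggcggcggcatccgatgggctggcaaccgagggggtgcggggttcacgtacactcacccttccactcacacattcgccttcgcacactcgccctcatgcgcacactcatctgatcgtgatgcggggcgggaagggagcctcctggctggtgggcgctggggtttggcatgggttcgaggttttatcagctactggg
Meg3, chr12:109540746-109540995, plus strand: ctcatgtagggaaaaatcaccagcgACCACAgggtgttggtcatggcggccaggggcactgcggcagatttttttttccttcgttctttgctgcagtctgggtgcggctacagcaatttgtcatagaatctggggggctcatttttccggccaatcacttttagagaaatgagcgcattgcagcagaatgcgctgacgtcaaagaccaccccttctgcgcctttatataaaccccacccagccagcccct
2900026A02Rik, chr5:113221277-113221526, minus strand: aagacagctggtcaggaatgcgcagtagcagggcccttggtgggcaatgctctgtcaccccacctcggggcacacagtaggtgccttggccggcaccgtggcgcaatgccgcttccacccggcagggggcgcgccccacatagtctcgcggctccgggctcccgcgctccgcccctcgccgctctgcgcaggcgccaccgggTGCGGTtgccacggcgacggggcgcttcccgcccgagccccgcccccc
The match begins 219 bases before 1 of 3 RefSeq starts of Adgrl3, a start 1455 bases inside the gene as GENCODE places it. It begins 225 bases before 1 of 2 starts of Meg3 and 48 bases before 1 of 2 starts of 2900026A02Rik. These are matches of letters and not measured binding. Only 69.9% of shared raised and 68.4% of shared lowered genes have a window, so shares of the motif over the shared genes are not compared.

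Transcripts of the imprinted Dlk1-Dio3 region on distal chromosome 12 rose together. Meg3, Rian and Mirg are non-coding RNAs made from the maternal copy, and Rian and Mirg host snoRNAs and miRNAs. Meg3 was at 0, 0.229 and 1.29 CPM in WT and 13.1, 17.1 and 9.39 CPM in Cbfb-cKO CD103+CD11b- DCs, and at 3.13, 6.66 and 1.16 CPM in WT and 42.4, 129 and 81.1 CPM in Cbfb-cKO CD103-CD11b+ DCs. Rian was at 0.684, 0.915 and 1.78 CPM in WT and 9.99, 11 and 7.04 CPM in Cbfb-cKO CD103+CD11b- DCs, and at 1.57, 3.0 and 4.36 CPM in WT and 35.5, 93.5 and 79.0 CPM in Cbfb-cKO CD103-CD11b+ DCs. Both were under 2 CPM in every WT CD103+CD11b- sample, and every Cbfb-cKO sample was above every WT sample. The log2 fold changes were 4.47 for Meg3 (SE 0.49) and 3.87 for Rian (SE 0.42), each with an edgeR adjusted p of 0.00192.

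Of 27 genes tested within 1 Mb of Meg3, 8 were shared raised, against 0.695% of all genes tested, and none was lowered. Besides Meg3 and Rian these were Mirg, Rtl1, B830012L14Rik, Gm37899, Gm26945 and, 986 kb before Meg3, Evl, a regulator of actin filaments, with a log2 fold change of 0.40. Evl lost its call without 9 of the 12 samples (edgeR adjusted p up to 0.0691, without WT CD103+CD11b- replicate 2) and Gm26945 without 11 (0.0836, without Cbfb-cKO CD103-CD11b+ replicate 2). Rtl1 lies antisense to a maternal non-coding transcript, and reads were counted without strand, so its reads cannot be told from those of the other strand. Mirg was at 0 to 0.582 CPM in the 6 WT samples and 0.391 to 10.9 CPM in the 6 Cbfb-cKO samples. The 11 genes tested with a start from 24.3 kb before to 189 kb after that of Meg3 had log2 fold changes of 3.03 or more, 7 of them called and 4 of low count not called. The 16 genes beyond that stretch lay between -0.80 and 0.42, and of these Evl was called. Chromosome 12 held 16 of the 143 shared raised genes (11.2%) and 4.17% of the genes tested.

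**Figure D3:**
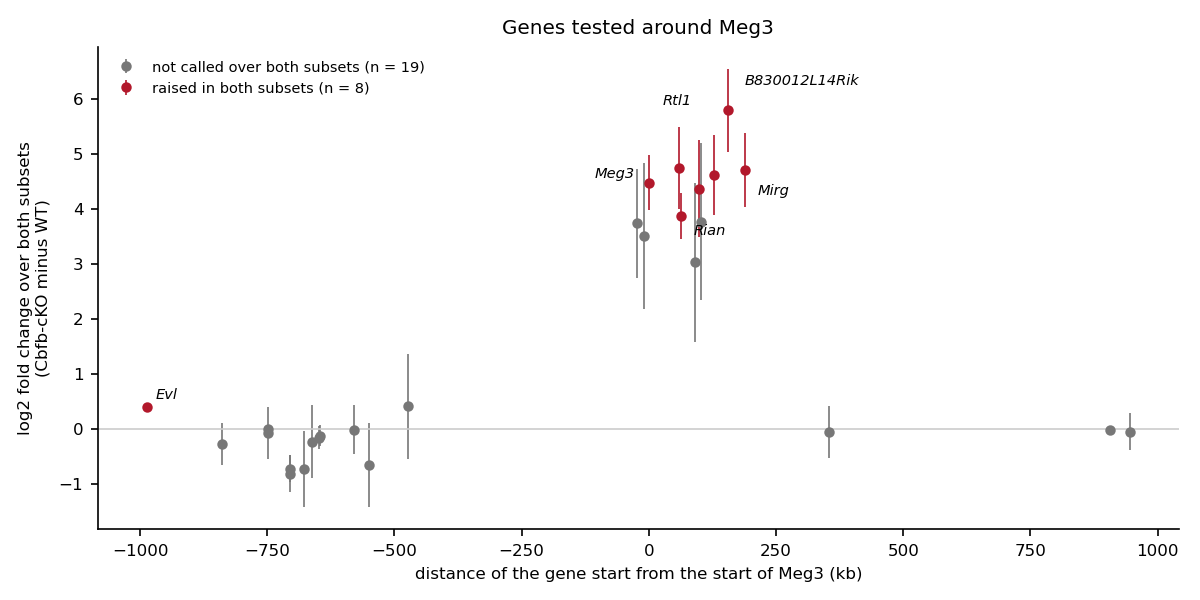
Log2 fold change over both subsets (Cbfb-cKO minus WT, bars ± 1 SE) of the 27 genes tested within 1 Mb of Meg3, against the distance in kb of each gene start from the start of Meg3. The 11 genes from 24.3 kb before to 189 kb after Meg3 lie at 3.03 or higher, and the 16 others lie between -0.80 and 0.42. The edges of that stretch were chosen from these values.

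Of 27 junction and adhesion proteins of the kind found in epithelia and in Langerhans cells, 5 fell in both subsets, none rose and 22 were not called. Over all genes tested 0.753% were shared lowered and 0.695% shared raised, the shares to set beside this list and those below. The median log2 fold change was -0.74 with 3 genes above 0, against a median of -0.05 and 43.9% above 0 over all genes tested. Like the other gene lists, this one was chosen with earlier results of these data known, so its shares only describe its members. Cdh1 (E-cadherin) was at 217, 166 and 67.7 CPM in WT and 28.0, 43.9 and 4.69 CPM in Cbfb-cKO CD103+CD11b- DCs, and at 224, 116 and 124 CPM in WT and 33.0, 22.6 and 46.9 CPM in Cbfb-cKO CD103-CD11b+ DCs. The genotypes did not overlap over the 12 samples (log2 fold change -2.36, SE 0.43, edgeR adjusted p = 0.025). Epcam was at 42.7, 49.9 and 36.0 CPM in WT and 9.54, 18.6 and 6.26 CPM in Cbfb-cKO CD103+CD11b- DCs, and at 86.5, 48.6 and 73.9 CPM in WT and 26.7, 23.3 and 41.3 CPM in Cbfb-cKO CD103-CD11b+ DCs (log2 fold change -1.53, SE 0.27, edgeR adjusted p = 0.0213). Plet1, a surface protein of placenta, skin and some DCs, was at 36.9 to 77.6 CPM in WT and 0.666 to 2.35 CPM in Cbfb-cKO CD103+CD11b- DCs, and at 27.3 to 97.9 CPM in WT and 10.5 to 21.9 CPM in Cbfb-cKO CD103-CD11b+ DCs (log2 fold change -3.38, edgeR adjusted p = 0.027). Cldn1 is given above, and Cldn12 had -1.16 (edgeR adjusted p = 0.0493), a call lost with sex as a covariate (0.0855), with the correlation of same-numbered samples (limma adjusted p = 0.0786) and without 11 of the 12 samples (edgeR adjusted p up to 0.111, without Cbfb-cKO CD103+CD11b- replicate 1).

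Of the 17 epithelial markers tested, Epcam and Cdh1 were the 2 called, and the median was 0.23 with 9 above 0, with 1.95 in CD103+CD11b- and -0.11 in CD103-CD11b+ DCs. Without these 2 the summed level of the other 15 was 16.9 to 29.3 CPM in WT and 18.4 to 92.5 CPM in Cbfb-cKO CD103+CD11b- DCs. In CD103-CD11b+ DCs it was 164 to 245 CPM in WT and 74.8 to 168 CPM in Cbfb-cKO samples. The part of epithelial cells in the lower junction genes was not tested. In bulk samples such as these, fewer cells of a type and less RNA per cell cannot be told apart. With sex as a covariate the calls of Cdh1 and Plet1 were lost (edgeR adjusted p = 0.052 and 0.0531), Cdh1 and Plet1 each lost theirs without 6 of the 12 samples (up to 0.0643 without Cbfb-cKO CD103+CD11b- replicate 1 and 0.0675 without Cbfb-cKO CD103+CD11b- replicate 2), and Epcam lost its call without 2 of the 12 samples (up to 0.058, without Cbfb-cKO CD103+CD11b- replicate 1).

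Of 39 interferon-stimulated genes 5 were raised in both subsets, against 0.695% of all genes tested, and none was lowered. The median log2 fold change was 0.30 against -0.05 over all genes tested, and 31 of the 39 were above 0, against 43.9% of all genes tested. Oas3, a double-stranded RNA sensor, was at 6.16, 3.89 and 3.23 CPM in WT and 9.99, 13.7 and 15.2 CPM in Cbfb-cKO CD103+CD11b- DCs. In CD103-CD11b+ DCs it was at 17.8, 13.7 and 8.44 CPM in WT and 68.9, 85.4 and 67.3 CPM in Cbfb-cKO samples, with no overlap in either subset (log2 fold change 2.06, SE 0.25, edgeR adjusted p = 0.00329). The antiviral GTPases Mx1 and Gbp2 had log2 fold changes of 0.96 (SE 0.15, edgeR adjusted p = 0.0136) and 1.04 (SE 0.17, edgeR adjusted p = 0.0181) and kept their calls without any 1 sample. Zbp1, a sensor of Z-form nucleic acids, had 1.02 (edgeR adjusted p = 0.0199). The called genes included, 14 of the 39 had an unadjusted p under 0.05 in the raised direction and 2 in the lowered direction, against 6.78% and 9.22% of all genes tested. Zbp1 lost its call without 2 of the 12 samples (edgeR adjusted p up to 0.0517, without Cbfb-cKO CD103-CD11b+ replicate 2).

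**Figure D4:**
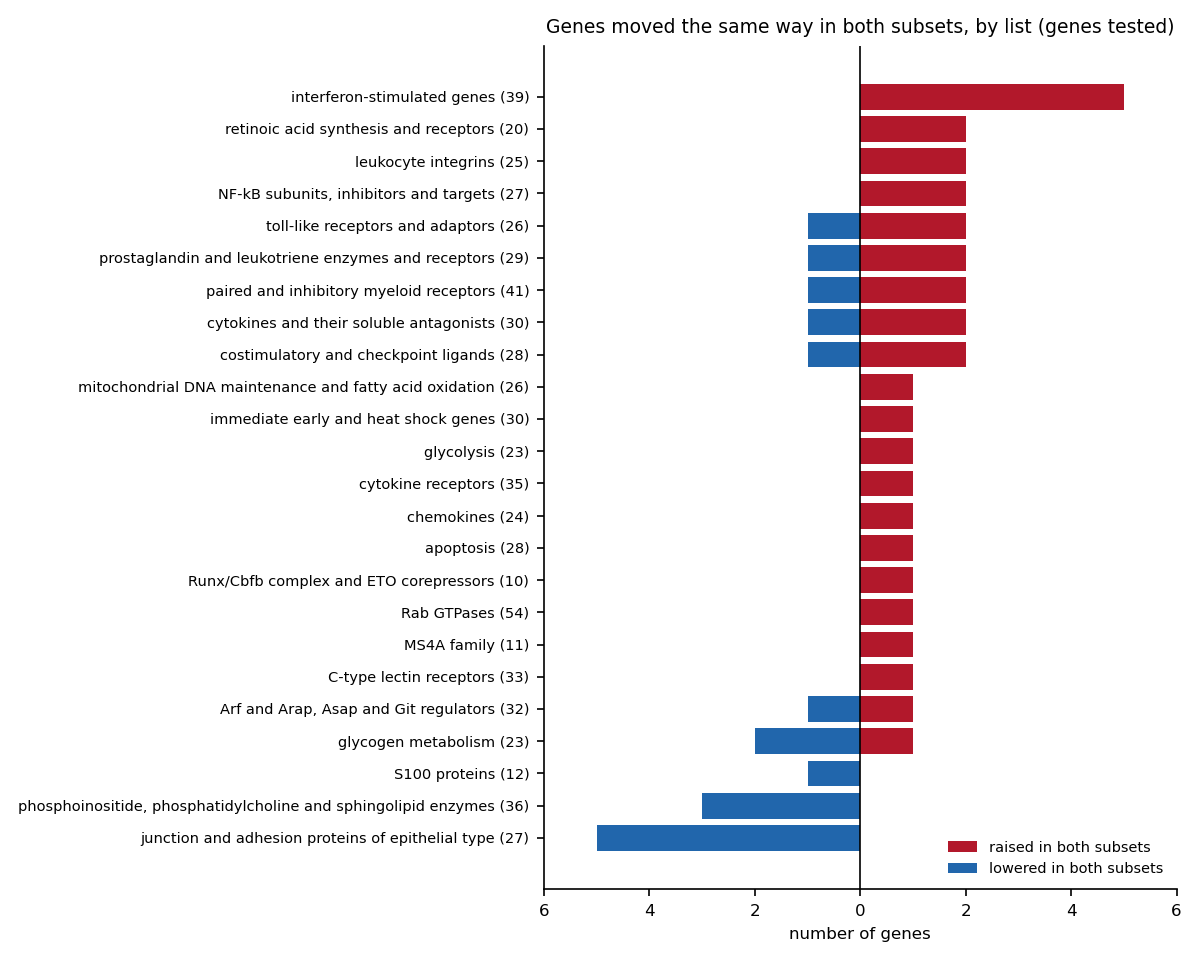
Number of genes raised (red, right) and lowered (blue, left) in both subsets for each gene list with at least 1 such gene, with the number of genes tested in parentheses. Interferon-stimulated genes have 5 raised and none lowered, and junction and adhesion proteins have none raised and 5 lowered. The lists were chosen with earlier results of these data known.

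Of 30 cytokines and soluble antagonists, Il18 and Il15 rose and Il22ra2 fell. Il18, an inflammasome-processed cytokine, was at 0.684, 1.83 and 1.94 CPM in WT and 4.66, 3.17 and 5.87 CPM in Cbfb-cKO CD103+CD11b- DCs, and at 5.68, 5.33 and 2.33 CPM in WT and 29.4, 34.5 and 33.6 CPM in Cbfb-cKO CD103-CD11b+ DCs. The groups did not overlap in either subset, although WT values of the CD103+CD11b- subset rest on 2 to 12 counts (log2 fold change 2.27, SE 0.35, edgeR adjusted p = 0.0133). Il15, which sustains intraepithelial and natural killer lymphocytes, was at 8.42 to 26.4 CPM in WT and 23.1 to 46.6 CPM in Cbfb-cKO samples (log2 fold change 1.04, edgeR adjusted p = 0.0215). Of 35 cytokine receptors Il6ra alone was called (0.65, edgeR adjusted p = 0.0216), and of 24 chemokines Cxcl9, a CXCR3 ligand, alone (0.83, edgeR adjusted p = 0.033). Il15 lost its call without 4 of the 12 samples and Il6ra without 3 (edgeR adjusted p up to 0.0552 and 0.0588, each without Cbfb-cKO CD103+CD11b- replicate 1), and Cxcl9 lost its call with sex as a covariate (edgeR adjusted p = 0.0662) and without 9 samples (up to 0.0763, without WT CD103+CD11b- replicate 1).

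Innate receptors changed in both directions. Of 26 Toll-like receptors and adaptors, Tlr13, a sensor of bacterial ribosomal RNA, and Tlr11, a sensor of profilin and flagellin, rose, and Tlr5, the flagellin receptor, fell. Tlr13 was at 50.3 to 114 CPM in WT and 111 to 198 CPM in Cbfb-cKO samples, without overlap within a subset (log2 fold change 0.83, edgeR adjusted p = 0.0181, and 0.0501 without Cbfb-cKO CD103+CD11b- replicate 2). Tlr5 was at 24.6, 15.3 and 12 CPM in WT and 1.11, 0.732 and 0 CPM in Cbfb-cKO CD103+CD11b- DCs, and at 49.3, 18 and 24.7 CPM in WT and 13, 7.61 and 12.8 CPM in Cbfb-cKO CD103-CD11b+ DCs (-2.65, edgeR adjusted p = 0.0474). Tlr5 lost its call with sex as a covariate (edgeR adjusted p = 0.0919), and Tlr11 and Tlr5 each lost it without 11 of the 12 samples (up to 0.0678 without Cbfb-cKO CD103-CD11b+ replicate 2 and 0.12 without Cbfb-cKO CD103+CD11b- replicate 1). Clec12a, an inhibitory C-type lectin that senses uric acid crystals, was the 1 called of 33 lectins, and went from 111, 109 and 116 CPM in WT to 183, 200 and 226 CPM in Cbfb-cKO CD103+CD11b- DCs and from 34.1, 31.0 and 23.3 CPM to 130, 176 and 123 CPM in CD103-CD11b+ DCs. All Cbfb-cKO values were above all WT values (log2 fold change 1.55, SE 0.24, edgeR adjusted p = 0.0151). Of 41 paired and inhibitory myeloid receptors Treml4 and Siglecf rose (1.19 and 1.36, edgeR adjusted p = 0.039 and 0.0426) and Cd300c fell (-2.31, edgeR adjusted p = 0.033), and Treml4 and Cd300c lost the call with sex as a covariate (edgeR adjusted p = 0.0678 and 0.0681). Without 1 sample Siglecf and Cd300c lost their calls in 8 of 12 fits each and Treml4 in 10 (edgeR adjusted p up to 0.0971 without WT CD103+CD11b- replicate 1, 0.0812 without Cbfb-cKO CD103+CD11b- replicate 1 and 0.0756 without WT CD103-CD11b+ replicate 3).

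Of 25 leukocyte integrins Itgad and Itgam rose. Itgad, the αD chain, was at 22.6, 19.0 and 12.9 CPM in WT and 45.5, 56.6 and 35.2 CPM in Cbfb-cKO CD103+CD11b- DCs, and at 9.20, 5.33 and 7.27 CPM in WT and 157, 172 and 187 CPM in Cbfb-cKO CD103-CD11b+ DCs (log2 fold change 2.89, SE 0.54, edgeR adjusted p = 0.0266). Itgam, which encodes the CD11b chain used in the sort, was at 3.66 to 4.79 CPM in WT and 5.99 to 11 CPM in Cbfb-cKO CD103+CD11b- DCs, and at 77.9 to 104 CPM in WT and 122 to 222 CPM in Cbfb-cKO CD103-CD11b+ DCs (0.88, SE 0.18, edgeR adjusted p = 0.0406). Because cells were gated on CD11b, its level also depends on the gate. So does that of Itgae, the CD103 chain, which was not called over both subsets (-0.99, edgeR adjusted p = 0.204). Itgae had 281, 138 and 150 CPM in WT and 81.5, 39.3 and 30.6 CPM in Cbfb-cKO samples of the CD103-CD11b+ subset. There the change was -1.89 (edgeR adjusted p = 0.0301), against -0.13 in the CD103+CD11b- subset. The bearing of this fall on the shared lowered genes was not tested. The call of Itgam was lost with sex as a covariate (edgeR adjusted p = 0.0589) and without 10 samples (up to 0.0815, without Cbfb-cKO CD103+CD11b- replicate 2), and that of Itgad without 5 of the 12 samples (up to 0.0702, without WT CD103-CD11b+ replicate 1).

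Itgad and Itgam lie near Itgax, whose sequence drives the Cre. Of 26 genes tested within 250 kb of Itgax, 3 were shared raised, against 0.695% of all genes tested. The third, 4931431B13Rik, lies inside Itgad on the other strand, so its reads and those of Itgad cannot be told apart, and its call was lost without 9 of the 12 samples (edgeR adjusted p up to 0.0758, without WT CD103-CD11b+ replicate 3). Itgax was at 536 to 867 CPM in the 6 WT samples and 666 to 1316 CPM in the 6 Cbfb-cKO samples (0.26, edgeR adjusted p = 0.448). Of 75 genes within 1 Mb of Cbfb none was called over both subsets by edgeR, and 12 had an unadjusted p under 0.05, the same share as the 16.0% of all genes tested. A part of the transgene or of the genetic background in the values at these loci was not tested.

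Dhrs9, Aldh1a2 and Ptgs1, enzymes of retinoic acid and lipid mediators, rose in both subsets. Dhrs9, a retinol dehydrogenase, was at 29.4, 40.0 and 47.4 CPM in WT and 109, 115 and 124 CPM in Cbfb-cKO CD103+CD11b- DCs, and at 7.05, 5.33 and 6.4 CPM in WT and 24.9, 30.9 and 41.8 CPM in Cbfb-cKO CD103-CD11b+ DCs. The groups did not overlap in either subset (log2 fold change 1.92, SE 0.19, edgeR adjusted p = 0.00138). Aldh1a2, which makes retinoic acid from retinal in gut DCs, was at 192, 194 and 116 CPM in WT and 292, 373 and 240 CPM in Cbfb-cKO CD103+CD11b- DCs, and at 64.2, 56.3 and 39.6 CPM in WT and 79.7, 102 and 88.7 CPM in Cbfb-cKO CD103-CD11b+ DCs (0.80, SE 0.17, edgeR adjusted p = 0.039). Of the 20 genes of retinoic acid synthesis and receptors these 2 were raised, none was lowered, and the median was -0.15. The call of Aldh1a2 held with sex as a covariate (edgeR adjusted p = 0.00285) and was lost without 10 of the 12 samples in turn (up to 0.0885, without Cbfb-cKO CD103+CD11b- replicate 2).

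Ptgs1, the constitutive cyclooxygenase, was at 7.52, 9.15 and 11 CPM in WT and 199.7, 200.6 and 121.6 CPM in Cbfb-cKO CD103+CD11b- DCs, and at 27.4, 116 and 32.9 CPM in WT and 178, 280 and 189 CPM in Cbfb-cKO CD103-CD11b+ DCs. Every Cbfb-cKO value was above every WT value, although WT CD103-CD11b+ replicate 2 stood apart from the other 2 (log2 fold change 2.98, SE 0.51, edgeR adjusted p = 0.0199). Without WT CD103+CD11b- replicate 1 the adjusted p was 0.0507. Alox5ap, which presents arachidonic acid to 5-lipoxygenase, fell (-1.14, edgeR adjusted p = 0.039, and 0.056 with sex as a covariate), and its call was lost without 10 of the 12 samples (up to 0.0927, without Cbfb-cKO CD103+CD11b- replicate 2). Of 29 prostaglandin and leukotriene genes 2 were shared raised, Ptgs1 and Dhrs9, which is also counted in the retinoic acid list, and 1 was shared lowered.

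Single members of metabolic lists moved. The glycogen-targeting phosphatase subunit Ppp1r3d was at 7.87, 7.55 and 5.01 CPM in WT and 2.22, 2.44 and 1.96 CPM in Cbfb-cKO CD103+CD11b- DCs, and at 26.8, 20.3 and 31.1 CPM in WT and 6.96, 6.42 and 5.10 CPM in Cbfb-cKO CD103-CD11b+ DCs. It did not overlap in either subset (log2 fold change -1.85, SE 0.20, edgeR adjusted p = 0.00192). Its paralog Ppp1r3b had -1.05 (edgeR adjusted p = 0.0407) and glycogenin, Gyg, which primes glycogen, 0.54 (edgeR adjusted p = 0.0487), so that 1 of 23 glycogen genes was raised and 2 were lowered. Of 36 phosphoinositide, phosphatidylcholine and sphingolipid enzymes 3 were shared lowered, against 0.753% of all genes tested. These were Smpdl3b, a sphingomyelinase-like enzyme (-2.02, edgeR adjusted p = 0.0254), Pcyt1a, the rate-limiting enzyme of phosphatidylcholine synthesis (-0.85, edgeR adjusted p = 0.0319), and Ugcg, glucosylceramide synthase (-0.51, edgeR adjusted p = 0.0426). Tpi1 of glycolysis rose (0.65, edgeR adjusted p = 0.0442), 1 of 23 tested. With sex as a covariate the adjusted p was 0.056 for Ppp1r3b, 0.0531 for Pcyt1a, 0.0505 for Ugcg and 0.0753 for Tpi1. Without 1 sample Gyg lost its call in 11 of 12 fits (edgeR adjusted p up to 0.114, without Cbfb-cKO CD103+CD11b- replicate 2), Ppp1r3b in 10 (0.0888, without WT CD103-CD11b+ replicate 3) and Tpi1 in 10 (0.0959, without WT CD103+CD11b- replicate 1). Smpdl3b lost it in 6 (edgeR adjusted p up to 0.0645, without Cbfb-cKO CD103-CD11b+ replicate 2), Pcyt1a in 8 (0.0823, without Cbfb-cKO CD103+CD11b- replicate 1) and Ugcg in all 12 (0.106, without WT CD103+CD11b- replicate 2).

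Other signalling genes were called singly or in pairs. Of 28 costimulatory and checkpoint ligands, Cd40, which receives T-cell help, rose with a log2 fold change of 0.78 (edgeR adjusted p = 0.0244). Slamf8 rose by less (0.70, edgeR adjusted p = 0.0454), and Cd244a, a SLAM family receptor, fell (-1.16, edgeR adjusted p = 0.0406), both calls lost with sex as a covariate (edgeR adjusted p = 0.0855 and 0.0903). Of 27 NF-kB genes, Birc3, an inhibitor of cell death and a regulator of the non-canonical pathway, and Chuk, the kinase IKKα, rose (0.60 and 0.51, edgeR adjusted p = 0.0261 and 0.039, and 0.0507 and 0.0739 with sex as a covariate). Egr2, an immediate early factor, rose with 1.25 (edgeR adjusted p = 0.0254), 1 of 30 immediate early and heat shock genes, of which 9 were raised at an unadjusted p under 0.05 and 27 were above 0, against 6.78% and 43.9% of all genes tested. Of 12 S100 proteins S100a6 fell (-2.08, edgeR adjusted p = 0.025). Cyth4, an Arf exchange factor, fell from 214 to 377 CPM in WT to 128 to 193 CPM in Cbfb-cKO samples (-0.96, edgeR adjusted p = 0.0199), and Arap1, a GTPase-activating protein for Arf, rose (0.72, edgeR adjusted p = 0.027). Rab38, which serves lysosome-related organelles, was the 1 called of 54 Rab GTPases (1.17, edgeR adjusted p = 0.0401), and Polg 1 of 2 called of 26 mitochondrial DNA and fatty acid oxidation genes (1.20, edgeR adjusted p = 0.0408). With sex as a covariate the adjusted p was 0.0695 for Rab38 and 0.0628 for Polg, and each lost its call without 10 of the 12 samples (edgeR adjusted p up to 0.0871 and 0.0982, both without WT CD103+CD11b- replicate 1). Likewise Chuk and Slamf8 lost it in 11 of 12 fits (edgeR adjusted p up to 0.0849 without WT CD103+CD11b- replicate 1 and 0.0961 without WT CD103-CD11b+ replicate 3) and Cd244a in 10 (0.0985, without Cbfb-cKO CD103+CD11b- replicate 2). Cd40 and Birc3 lost it in 6 (edgeR adjusted p up to 0.0611, each without Cbfb-cKO CD103+CD11b- replicate 2), Arap1 in 6 (0.0584, without Cbfb-cKO CD103-CD11b+ replicate 2) and Egr2 in 4 (0.0677, without WT CD103+CD11b- replicate 1). Cyth4 lost it in 4 and S100a6 in 3 (edgeR adjusted p up to 0.0552 and 0.0746, both without Cbfb-cKO CD103+CD11b- replicate 1).

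Several programmes had no gene called over both subsets by edgeR. None was called of 30 genes of TGFβ signalling (9 at an unadjusted p under 0.05, median -0.28), 39 DC lineage transcription factors (13, median 0.04), 21 genes of MHC class II presentation (4, median 0.21) and 22 chemokine receptors (11, median -0.09). The same held for 40 cell cycle genes (2), 78 cytosolic ribosomal proteins (2), 43 mitochondrial carriers (10) and 28 genes of cholesterol synthesis and export (1). Of all genes tested, 16.0% had an unadjusted p under 0.05. Batf3 of the DC factors had 0.39 (edgeR adjusted p = 0.0724). Irf4 had -1.78 in the CD103+CD11b- and -0.01 in the CD103-CD11b+ subset, and a miss over both subsets does not show that a gene was unaffected in each.

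Markers of other cell types were measured beside these results. Of 15 B cell markers Bank1 and Ms4a1 were called, 13 were above 0 and the median was 0.53 over both subsets, -0.43 in CD103+CD11b- and 1.52 in CD103-CD11b+ DCs. Over all genes tested 1.55% were called and 43.9% were above 0. Ms4a1 (CD20) was at 5.13, 7.32 and 9.70 CPM in WT and 22.9, 13.2 and 13.3 CPM in Cbfb-cKO CD103+CD11b- DCs, and at 7.44, 7.0 and 2.04 CPM in WT and 91.2, 84.5 and 43.3 CPM in Cbfb-cKO CD103-CD11b+ DCs (log2 fold change 2.42, edgeR adjusted p = 0.043, and 0.0724 with sex as a covariate), a call lost without 10 of the 12 samples (up to 0.0966, without WT CD103-CD11b+ replicate 1). The other 13 B cell markers summed to 446 to 687 CPM in WT and 412 to 553 CPM in Cbfb-cKO CD103+CD11b- DCs, and to 459 to 761 CPM in WT and 631 to 1176 CPM in Cbfb-cKO CD103-CD11b+ DCs. The part of B cells in the values of Bank1 and Ms4a1 was not tested.

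Of 16 T cell or innate lymphocyte markers Thy1 fell (-1.94, edgeR adjusted p = 0.0377, and 0.057 with sex as a covariate), a call lost without 9 of the 12 samples (up to 0.0752, without WT CD103-CD11b+ replicate 1), with a median of 0.17. Of 18 stroma and endothelium markers none was called by edgeR, 3 had an unadjusted p under 0.05, 1 was above 0 and the median was -0.69, and their summed level ran from 257 to 1253 CPM in WT and 196 to 597 CPM in Cbfb-cKO CD103+CD11b- DCs. In CD103-CD11b+ DCs that sum was 1938 to 5729 CPM in WT and 485 to 3697 CPM in Cbfb-cKO samples. Over all genes tested 16.0% had an unadjusted p under 0.05, 6.78% in the raised and 9.22% in the lowered direction, and 43.9% were above 0. Of 14 plasmacytoid DC markers none was called by edgeR and 6 had an unadjusted p under 0.05, with a median of -0.83 over both subsets, -1.33 in CD103+CD11b- and -0.20 in CD103-CD11b+ DCs. Their sum was 1216 to 2815 CPM in WT and 539 to 1082 CPM in Cbfb-cKO CD103+CD11b- DCs, without overlap, and 1034 to 1308 CPM in WT and 854 to 1249 CPM in Cbfb-cKO CD103-CD11b+ DCs, with overlap. The part of such cells in the lowered genes was not tested. Of 16 cDC2 markers Cd7 fell (-1.45, edgeR adjusted p = 0.0404, 0.0859 with sex as a covariate, and lost without 9 of the 12 samples, up to 0.0983 without Cbfb-cKO CD103+CD11b- replicate 2) and Itgam rose, 3 were above 0, 6 had an unadjusted p under 0.05 in the lowered direction, and the median was -0.55 over both subsets and -1.99 in CD103+CD11b- DCs. Their sum was 1039 to 1269 CPM in WT and 508 to 718 CPM in Cbfb-cKO CD103+CD11b- DCs, without overlap, and 2336 to 2761 CPM in WT and 2296 to 3764 CPM in Cbfb-cKO CD103-CD11b+ DCs, and its part in the lowered genes was not tested. Of 16 cDC1 markers Tlr11 rose. Of 9 neutrophil, eosinophil or mast cell markers tested Siglecf rose, 8 were above 0, 3 were raised at an unadjusted p under 0.05 and the median was 0.50. Their sum was 331.7 to 365.9 CPM in WT and 331.5 to 405.9 CPM in Cbfb-cKO CD103+CD11b- DCs. In CD103-CD11b+ DCs it was 294.8 to 377.3 CPM in WT and 467 to 567.5 CPM in Cbfb-cKO samples, without overlap. The part of such cells in the raised genes was not tested. Of 15 macrophage and 10 plasma cell markers none was called by edgeR, with 2 each at an unadjusted p under 0.05.

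Some shared genes were close to absent in 1 genotype. Gm8291 held 2 to 14 counts in each WT sample and none in any Cbfb-cKO sample, so that its mean of 1.72 CPM was at least 12.45-fold higher in WT than the level of 3 counts over the 6 Cbfb-cKO samples (edgeR adjusted p = 0.0254, and 0.0511 with sex as a covariate). Tex26 was at 0 in all WT samples and at 0.391 to 1.95 CPM in Cbfb-cKO samples, at least 7.84-fold higher (edgeR adjusted p = 0.0487, and 0.0721 with sex as a covariate). The transcription factor Foxc1 was at 1.37 to 39.3 CPM in WT and 0 to 1.19 CPM in Cbfb-cKO samples (-3.88, edgeR adjusted p = 0.0426), with its highest value in WT CD103-CD11b+ replicate 3, and its call was lost without 10 of the 12 samples (up to 0.0944, without Cbfb-cKO CD103-CD11b+ replicate 2). Its log2 fold change ran from -4.16 to -2.81 without 1 sample. Gm45130 and A230098N10Rik, of unknown function, were at 0.808 to 3.20 CPM and 0.873 to 2.75 CPM in WT and at most at 0.244 and 0.449 CPM in Cbfb-cKO samples (edgeR adjusted p = 0.0196 and 0.0407). Without 1 sample Gm8291 lost its call in 6 of 12 fits (edgeR adjusted p up to 0.0613, without WT CD103+CD11b- replicate 2), Tex26 in all 11 in which it was tested (0.101, without Cbfb-cKO CD103-CD11b+ replicate 2) and A230098N10Rik in 11 (0.0961, without Cbfb-cKO CD103+CD11b- replicate 1). Tex26 reached the filter of 5 counts through Cbfb-cKO CD103+CD11b- replicate 2 alone, which held 8 counts. Gm8291, Gm45130 and A230098N10Rik reached it through WT samples alone. Their entry among the genes tested thus depended on the genotype where they were high, so their folds only describe them.

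Not every called gene was shared, and 16 raised and 5 lowered genes passed over both subsets without an unadjusted p under 0.05 in each. Slc27a2, a fatty acid transporter, was at 0 to 0.244 CPM in all CD103+CD11b- samples, while in CD103-CD11b+ DCs it was at 0.291 to 1.18 CPM in WT and 26.7 to 57.1 CPM in Cbfb-cKO samples. Adgre4, an adhesion receptor of myeloid cells, and Slc44a5 likewise had 2.42 and 3.23 in CD103-CD11b+ DCs and 0.07 and 1.21 in CD103+CD11b- DCs. Among the lowered genes 1810065E05Rik and Dennd3 were past the unadjusted limit in CD103+CD11b- DCs alone and Adra2a in CD103-CD11b+ DCs alone. In addition 7 genes were called in both subsets in opposite directions, all 7 lower in the CD103+CD11b- and higher in the CD103-CD11b+ subset, and none of these was called over both. Slc7a11, the cystine/glutamate exchanger, was at 8.89 to 19.7 CPM in WT and 3.55 to 6.83 CPM in Cbfb-cKO CD103+CD11b- DCs, and at 33.7 to 55.3 CPM in WT and 168 to 236 CPM in Cbfb-cKO CD103-CD11b+ DCs.

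The effect of Cbfb-cKO was larger in CD103-CD11b+ DCs for 103 of the 143 shared raised genes and larger in CD103+CD11b- DCs for 92 of the 155 shared lowered genes, and over all 20580 genes tested it was larger in CD103-CD11b+ DCs for 12007. The difference of effects passed the test for 4 of the raised genes and 2 of the lowered genes, against 0.651% of all genes tested. Shared lowered genes were richer in GC than shared raised genes, with median transcript GC of 53.0% and 47.8% against 48.8% over all genes tested. After a correction for GC content 158 raised and 118 lowered genes were shared, of which 127 and 112 were among the 143 and 155. Of the shared genes 81.1% of the raised and 92.3% of the lowered are protein-coding, against 71.4% of the genes tested, and 7 raised (4.90%) and 1 lowered (0.645%) lie on chromosome X, which holds 2.73% of the genes tested.

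**Figure D5:**
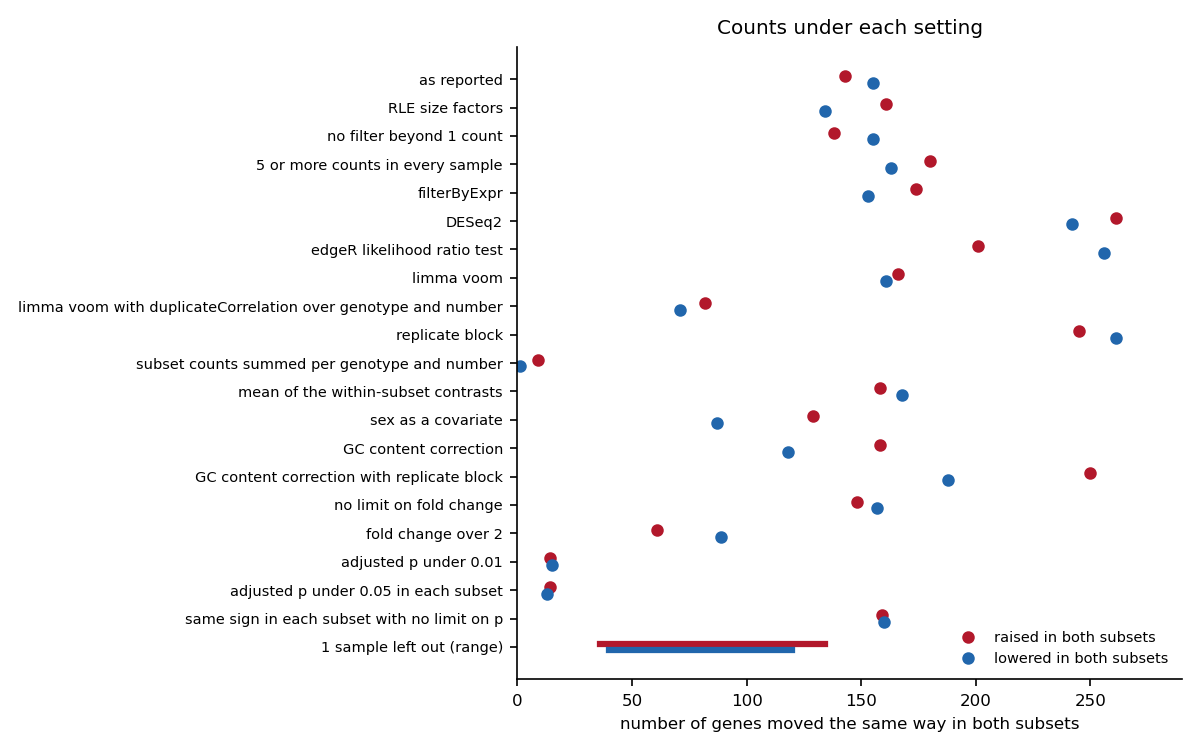
Number of genes raised (red) and lowered (blue) in both subsets under each way of testing, with the range over the 12 fits that leave out 1 sample as bars in the bottom row. The counts were 143 and 155 as reported, 129 and 87 with sex as a covariate, and 9 and 1 with the subsets' counts summed.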

How the data were processed

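RNA-seq was performed on 12 libraries of sorted gut DCs, 3 per genotype and subset. The authors trimmed reads with Trim Galore (0.5.0), aligned them to mm10 with STAR (2.7), removed duplicates and reads of mapping quality under 5, and counted them with htseq-count on the Ensembl GRCm38 annotation (release 92), and the deposited values are raw counts per gene. The 5 summary lines that name no gene were left out of library sizes, and reads on no feature made up 59.7 to 66.1% of each total. Gene names came from GENCODE, which matched 99.8% of 53801 identifiers, and promoters from RefSeq. The level of 3 counts covers counting error only.

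Counts were scaled by TMM and tested with edgeR (4.0.16, R 4.3.3) by the quasi-likelihood test on genes that reached 5 counts in any sample, with subset as a covariate for the average effect and with 1 model of the 4 groups for each subset and for the difference of effects. P-values were adjusted by Benjamini-Hochberg over all genes tested. The samples of a group came from different mice, but subsets may share mice, and the fit over both treats all 12 samples as independent. The scripts were tested on simulated data. Alternatives used DESeq2 (1.42.0) and limma (3.58.1), other filters, scalings and limits, a replicate block and each sample left out. Corrections for GC content and for sex, read from Y-linked counts, were chosen after seeing the data. The members and gene lists were chosen with earlier results of these data known.

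Named genes were the Runx genes and Cbfb, the 12 shared genes in each direction with the smallest p, the 5 in each direction with the largest fold among those whose 6 and 6 samples did not overlap, up to 4 shared members of each gene list, called members of marker lists, the 3 per direction with the smallest p that were called but not shared, the 3 opposite genes with the smallest p for the difference, and Il22ra2 and Il18. Some members of these lists beyond the rule (Cldn12, Evl, Batf3, Irf4, Itgax, Itgae, Sirpa, Siglech and the DC markers) were chosen after their values were seen. Some members of the lists are not reported here.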

Additional observations from a re-analysis of the deposited data

Results flagged for a closer look

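The size of the genotype effect differed between the subsets, by edgeR's quasi-likelihood test of the difference, for 6 shared genes. Clec12a rose more in CD103-CD11b+ DCs, by 1.42 on the log2 scale (edgeR adjusted p = 0.0295), as did Itgad, by 3.19 (edgeR adjusted p = 0.00685), its overlapping partner 4931431B13Rik, by 4.24 (edgeR adjusted p = 0.0314), and Treml4, by 1.37 (edgeR adjusted p = 0.0492). The difference for S100a6, which fell more in CD103+CD11b- DCs, was 2.15 (edgeR adjusted p = 0.0494), and that for Pcyt1a 0.981 (edgeR adjusted p = 0.0339).

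The 7 genes called in opposite directions were chosen for those calls, which fix a difference between the subsets, so their values are a description with no test. For the 3 given, the effect in CD103-CD11b+ DCs exceeded that in CD103+CD11b- DCs by 3.88 for Slc7a11, by 5.98 for the C-type lectin Clec4a4 and by 2.03 for Pag1, an adaptor that recruits the kinase Csk.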

How the results depend on the processing

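The 298 shared genes kept their sign over both subsets in each of 26 fits that tested them (243 genes in all 26), whereas the number of calls moved, and the cause was not tested. Against 159 raised and 160 lowered genes called and 143 and 155 shared, DESeq2 called 497 and 468 with 261 and 242 shared, and the edgeR likelihood ratio test called 385 and 477 with 256 lowered genes shared. The mean of the within-subset contrasts gave 240 and 272. A correlation of same-numbered samples of a genotype in limma voom gave 77 lowered genes, with 82 and 71 shared, and counts summed over the subsets gave 13 and 2, with 9 and 1 shared. Of the corrections chosen after seeing the data, sex as a covariate gave 90 lowered genes, 87 of them shared, and GC content with the replicate block gave 265 raised genes, 250 of them shared. By construction, a fold change over 2 left 74 and 92 called and 61 and 89 shared, an adjusted p under 0.01 left 14 and 15 of each, and an adjusted p under 0.05 in each subset left 14 and 13 shared. Without 1 sample, 40 to 143 raised and 40 to 134 lowered genes were called, and 36 to 134 and 40 to 120 were shared. The log2 fold change of Runx2, not called in any of these, turned from -0.07 to 0.026 with summed counts and 0.072 with sex as a covariate, and ran from -0.28 to 0.22 without 1 sample, above 0 without any 1 of 5 CD103+CD11b- samples.

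With the replicate number as a block 266 raised and 272 lowered genes were called, and 245 and 261 were shared. Deviations from the group means of same-numbered samples of a genotype correlated across genes at 0.235 on average between the subsets (lowest -0.0846), against -0.115 for differently numbered samples, and those of same-numbered samples of a subset at 0.123 between genotypes (lowest -0.0911), so not every pair was above 0.1 and the numbers were not taken to pair the samples. The sex pattern followed the number within each genotype in both subsets, so shared mice remain possible, and the fit over 12 samples would then rest on 3 mice per genotype. At 2161929 to 5863484 counts per sample, genes at or below the level of 3 counts in 1 genotype have folds of low precision.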
